A study of Mus musculus with 5 samples.

Results

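The 10 genes described here build, seal, feed and signal to the wall of blood vessels: Cldn5, Pecam1, Flt1, Kdr, Tek, Bmx, Plvap, Mfsd2a, Slc2a1 and Abcb1a. They were chosen by name for these roles, with earlier results of these data known. Each was matched to the row whose symbol, before the chromosome and strand in the row name, was the same. All 10 were present among the 17267 rows with gene names. Their levels were followed across the 14 cell types of the deposited annotation, in the single-cell RNA-Seq data of mouse lumbar dorsal root ganglion (DRG), the ganglion that holds the cell bodies of sensory neurons. The study presents a method that infers the shares of cell types from RNA-Seq data of mixed cells, and used these cells to evaluate it. The stated goal of the DRG experiment itself was to characterize the cell population. Its 5 samples were lumbar DRGs of 5 adult wild type C57BL/6 mice of both sexes, untreated, so there was 1 condition and every comparison below is between cell types of the same mice. The DRGs were dissociated with enzymes, captured in droplets and counted at the 3′ end of transcripts with unique molecular identifiers (UMIs), each of which marks 1 captured transcript. No sort or gate for endothelial cells is described, so the vessels were seen only through the cells that came along with the neurons.

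Endothelial cells line all vessels, and in nervous tissue they can form a barrier. Tight junctions made of claudins close the gaps between the cells, efflux pumps return lipophilic molecules to the blood, and carriers bring in glucose and lipids that cannot diffuse across. Vascular endothelial growth factor (VEGF) and the angiopoietins act on receptor kinases of the endothelial surface and govern the growth, survival and leakiness of vessels, while Plvap forms the diaphragms of fenestrae and caveolae and is low where a barrier is tight. The vessels of the DRG cell body region are known to be more permeable than those of the spinal cord and of the peripheral nerve.

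Positions are given in GRCm38, from the GENCODE vM21 annotation. Cldn5 is a gene of 1 exon at chr16:18776847-18778262 on the plus strand. The receptor genes span far more sequence, with Flt1 at chr5:147561604-147726011 and Kdr at chr5:75932827-75978458, both on the minus strand and each with 30 exons in the longest transcript. Tek is at chr4:94739289-94874976 on the plus strand, with 23 exons, and Bmx at chrX:164192842-164258193 on the minus strand, with 19. Pecam1 is at chr11:106654217-106750628 and Plvap at chr8:71497765-71511752, both on the minus strand. The transporter genes Mfsd2a, at chr4:122946850-122961188 on the minus strand, and Slc2a1, at chr4:119108711-119137983 on the plus strand, are both on chromosome 4, and Abcb1a is at chr5:8660077-8748575 on the plus strand.

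RefSeq promoter windows (GRCm38.p6) were matched for 8 of the 10 genes, all but Pecam1 and Plvap. Those of 5 genes are shown because they cover the patterns described below, with Cldn5, Flt1, Tek and Bmx read almost wholly or mainly from endothelial cells and Mfsd2a shared with satellite glia. Each is the 250 bases before the start site, 5′ to 3′ on the strand of the gene, in lower case. Capitals mark matches, on either strand, to the ETS motif AGGAAG, the SOX motif ACAAAG, the FOX motif GTAAACA, the hypoxia response motif ACGTG and the start site box TATAAA. The windows are chr16:18776597-18776846 (plus strand), chr5:147726012-147726261 (minus), chr4:94739039-94739288 (plus), chrX:164258194-164258443 (minus) and chr4:122961189-122961438 (minus).
Cldn5: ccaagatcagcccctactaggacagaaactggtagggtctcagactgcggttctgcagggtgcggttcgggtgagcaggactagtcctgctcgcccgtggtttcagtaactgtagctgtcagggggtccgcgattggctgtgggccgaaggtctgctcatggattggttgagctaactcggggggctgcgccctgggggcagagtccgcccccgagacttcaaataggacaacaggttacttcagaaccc
Flt1: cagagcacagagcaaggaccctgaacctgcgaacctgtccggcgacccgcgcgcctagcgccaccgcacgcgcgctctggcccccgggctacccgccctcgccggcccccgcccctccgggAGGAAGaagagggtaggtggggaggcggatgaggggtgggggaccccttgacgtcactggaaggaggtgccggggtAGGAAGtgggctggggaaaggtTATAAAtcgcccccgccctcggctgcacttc
Tek: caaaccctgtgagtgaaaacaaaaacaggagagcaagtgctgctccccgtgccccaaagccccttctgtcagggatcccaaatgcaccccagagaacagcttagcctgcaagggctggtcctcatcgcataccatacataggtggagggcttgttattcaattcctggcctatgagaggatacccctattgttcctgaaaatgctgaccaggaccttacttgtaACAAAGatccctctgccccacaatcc
Bmx: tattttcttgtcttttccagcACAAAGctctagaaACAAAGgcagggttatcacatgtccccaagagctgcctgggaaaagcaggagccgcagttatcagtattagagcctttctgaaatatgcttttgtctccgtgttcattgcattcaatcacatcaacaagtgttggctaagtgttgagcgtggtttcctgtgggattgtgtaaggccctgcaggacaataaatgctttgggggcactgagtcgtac
Mfsd2a: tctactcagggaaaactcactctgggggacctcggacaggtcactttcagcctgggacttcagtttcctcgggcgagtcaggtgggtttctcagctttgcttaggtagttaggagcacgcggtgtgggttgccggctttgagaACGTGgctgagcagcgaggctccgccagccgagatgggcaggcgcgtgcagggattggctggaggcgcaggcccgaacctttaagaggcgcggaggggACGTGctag
Counted back from the start site, the Flt1 window held AGGAAG at -129 and -53 and TATAAA at -31. ACAAAG stood at -26 before Tek and at -229 and -215 before Bmx. The Mfsd2a window, which overlaps an exon of the non-coding transcript 4933421A08Rik, held ACGTG at -107 and -9, and the Cldn5 window held none of the 5 motifs. Of 32817 mouse promoter windows of this length, 29.5% held AGGAAG, 16.5% ACAAAG, 3.16% GTAAACA, 16.6% ACGTG and 12.4% TATAAA, so each of these matches is common.

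The matrix held 3352 cells and 224553219 UMIs. The annotation placed 56 cells (3 to 16 per library) in the endothelial type, 249 (19 to 80) in satellite glia, the cells that wrap each neuron, and 3047 in 12 neuron types. The neuron types carry the prefixes NF (neurofilament), NP (non-peptidergic), PEP (peptidergic) and Th. Median UMIs per cell were 16889 in endothelial cells, 17729 in satellite glia and 62779 in neurons. UMIs were summed per type in each of the 5 libraries, and levels are given as CPM, the UMIs of a gene in every 1000000 UMIs of that sum, so that libraries and not cells are the replicates. Endothelial sums held 58279 to 302305 UMIs, and library 1 contributed 3 endothelial cells. Of 7 barcodes shared by libraries, 0 belonged to endothelial cells. The 12 endothelial identity genes that are not members, among them Cdh5 and Erg, summed to 8023 to 11494 CPM in endothelial cells, 7.92 to 132 in satellite glia and 47.7 to 65.2 in neurons. This goes with the name of the type. The endothelial sums also held UMIs of genes listed as markers of other cells. The 7 satellite glia markers summed to 1527 to 15254 CPM there with Cdh19 at 0 (80349.9 to 104109 in satellite glia), the 8 pericyte markers to 179 to 824 with Cspg4 at 0, and the 7 macrophage markers to 0 to 83.2 with Csf1r, C1qa, C1qb and Mrc1 at 0. Markers of smooth muscle summed to 29.8 to 395 CPM (Cnn1 at 0), of fibroblasts to 9.93 to 805 (Pdgfra at 0), of neurons to 326 to 1099 and of red blood cells to 0 to 16632. Of the satellite glia markers, Glul was higher in endothelial cells, at 892 to 1206 CPM, than in satellite glia, at 426 to 639.7. The part of other cells in the endothelial levels was not tested, beyond leaving out mixed cells, after which the members kept their endothelial calls.

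Each of the 10 members had its highest mean level in endothelial cells. Against neurons as 1 class, all 10 passed the test as higher, and the 5 endothelial libraries lay above the 5 neuron libraries for all 10. The share of all genes whose libraries lay apart was not counted, here or below, so such separation is given only as description. Over all 9484 genes tested, 24.4% were called higher and 34.1% lower in this comparison. Against satellite glia 9 of the 10 passed as higher, all but Mfsd2a, where 13.6% of all genes were called higher and 16.7% lower. The median log2 difference of the members was 9.52 against neurons and 7.52 against satellite glia (6.51 with Tek and Bmx set at the limits that their counts of 0 allow), beside -0.44 and -0.25 over all genes tested. A call here is a Benjamini-Hochberg adjusted p under 0.01 and a difference of at least 2-fold in edgeR's quasi-likelihood test. The authors defined the types by clustering these same counts, so the tests give the size of the differences and cannot serve as evidence for the types. Genes with low counts were filtered out over all classes together. A member read almost only in endothelial cells, such as Bmx, could pass this filter only through its endothelial sums. The direction of such a call was largely fixed in advance, so the numbers of members called are description and not support.

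**Figure D1:**
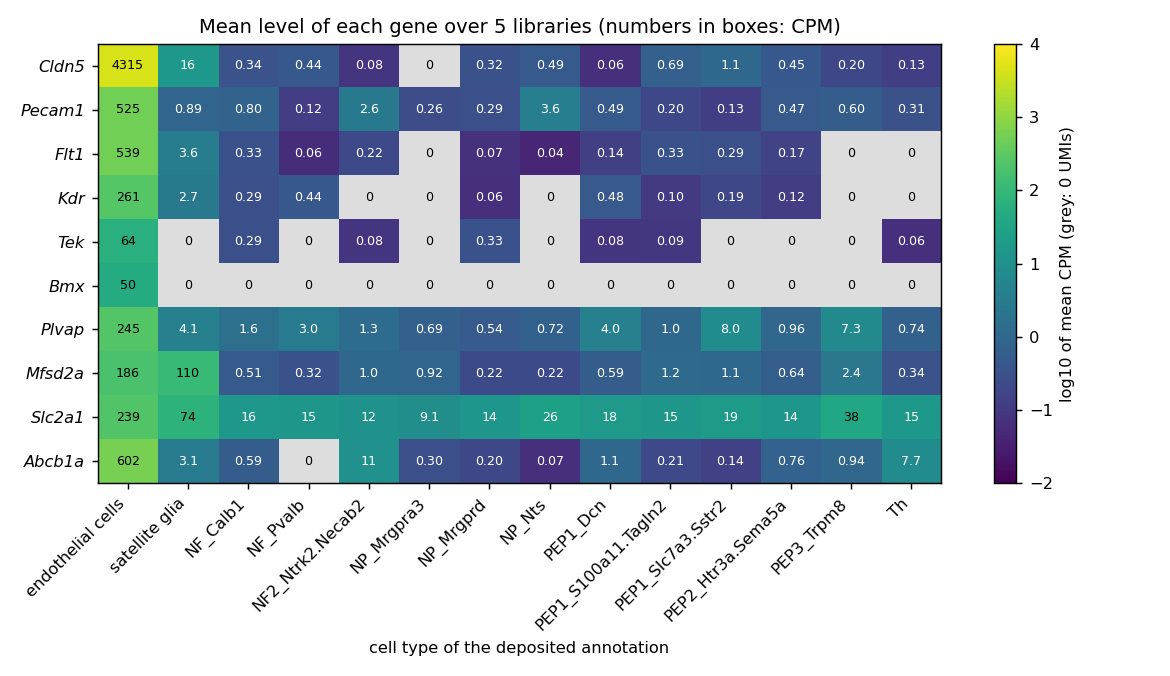
Mean CPM of summed UMIs over 5 libraries for each of the 10 genes (rows) in each of the 14 annotated types (columns). Colour is log10 of the mean, grey is 0 UMIs and the numbers are the means in CPM. The endothelial column holds the highest value of every row, Mfsd2a and Slc2a1 are also raised in satellite glia, and single neuron types stand out for Abcb1a, Plvap, Pecam1 and Slc2a1.

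Cldn5 and Pecam1 stand for the seal between endothelial cells. Cldn5, the claudin of endothelial tight junctions, had 5645, 3262, 4217, 5377 and 3077 CPM in the endothelial cells of libraries 1 to 5 (4315 ± 1178, SD, n = 5). The same libraries gave 5.04, 65.0, 0, 1.58 and 5.78 CPM in satellite glia and 0.397, 0.194, 0.519, 0.161 and 0.599 in neurons. The lowest endothelial library was thus far above the highest of either other class. The log2 difference was 13.62 (SE 0.71, adjusted p = 6.8e-15) against neurons and 7.92 (SE 0.60, adjusted p = 6.2e-11) against satellite glia. Of all Cldn5 UMIs in the matrix 95.9% came from the 56 endothelial cells, of which 55 had at least 1, with a median of 72.0 per cell and a highest count of 184.

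Pecam1, an adhesion molecule of the contacts between endothelial cells, had 721, 519, 428, 501 and 453 CPM in endothelial cells (525 ± 116, SD, n = 5). In satellite glia it was at 0 in 4 libraries and at 4.45 CPM in library 2, and in neurons it lay between 0.558 and 0.823 CPM in every library. All 56 endothelial cells had a Pecam1 UMI, against 2 of 249 satellite glia. The endothelial level was higher by 9.70 on the log2 scale than in neurons (SE 0.23, adjusted p = 2.7e-21) and by 8.83 than in satellite glia (SE 0.34, adjusted p = 3.9e-16). Because neurons were many, 74.3% of the Pecam1 UMIs were endothelial, and 156 UMIs came from neurons.

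Flt1 and Kdr encode the VEGF receptors 1 and 2, of which Kdr carries most of the signal and Flt1 binds VEGF tightly and limits it. Flt1 had 429, 635, 546, 616 and 471 CPM in endothelial cells (539 ± 89.3, SD, n = 5), 2.52, 12.5, 0, 0 and 2.89 in satellite glia, and 0.0794, 0.0727, 0.148, 0.12 and 0.124 in neurons. Kdr had 240.2, 318, 266, 258 and 222 CPM in endothelial cells (261 ± 36.1, SD, n = 5), 0, 9.79, 0.693, 0 and 2.89 in satellite glia, and 0.238, 0.0485, 0.111, 0.1 and 0.0792 in neurons. Both receptors varied little between the endothelial sums, including that of the 3 cells of library 1. The log2 difference to neurons was 12.40 for Flt1 (SE 0.37, adjusted p = 9.6e-20) and 11.63 for Kdr (SE 0.35, adjusted p = 1.4e-19). To satellite glia it was 7.30 for Flt1 (SE 0.39, adjusted p = 8.5e-14) and 6.57 for Kdr (SE 0.39, adjusted p = 7.2e-13). UMIs of both receptors were found in 54 of 56 endothelial cells, of Flt1 alone in the other 2 and of Kdr alone in 0. Since all 56 cells had a Flt1 UMI, each cell with Kdr had to hold both.

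Tek, the Tie2 receptor of the angiopoietins, had 103, 56.2, 51.7, 54.6 and 55.4 CPM in endothelial cells (64.2 ± 21.7, SD, n = 5). It was at 0 in satellite glia of all libraries, and in neurons it had 0.318, 0.194, 0, 0.201 and 0.204 CPM. The endothelial libraries stood apart from both, with a log2 difference of 8.54 to neurons (SE 0.46, adjusted p = 4.5e-13). Against satellite glia, with 3 UMIs over the class as the limit of its count of 0, Tek was at least 87.4-fold higher in the pooled sums (edgeR adjusted p = 6.7e-09). The value of library 1 rests on 3 cells.

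Bmx, a TEC family kinase known from arterial endothelium, had 17.2, 56.2, 66.5, 44.7 and 64.7 CPM in endothelial cells (49.8 ± 20.2, SD, n = 5), from 1, 17, 18, 9 and 7 UMIs. These 52 UMIs were all there were, since neurons and satellite glia held 0 in every library. With 3 UMIs over each class as the limit, the pooled endothelial level was at least 4034-fold higher than that of neurons (edgeR adjusted p = 2.1e-12) and at least 84.2-fold higher than that of satellite glia (adjusted p = 4.4e-08). A Bmx UMI was found in 28 of 56 endothelial cells (50%, exact Clopper-Pearson 95% interval 36.3 to 63.7%), in 0 of 3047 neurons and in 0 of 249 satellite glia. With 3 counts as the limit, these allow up to 0.0985% and 1.20% of cells with a UMI at this depth (exact upper limits 0.121% and 1.47%), and do not limit the cells that express Bmx below it. The endothelial share would be 22.8% with each cell thinned to 5000 UMIs.

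Plvap, the protein of fenestral and caveolar diaphragms, had 206, 215, 210.5, 124 and 471 CPM in endothelial cells (245 ± 132, SD, n = 5). Satellite glia had 0, 4.45, 1.39, 0 and 14.4 CPM, and neurons 1.59, 1.84, 1.52, 1.47 and 1.54. Library 5 was the highest in both non-neuronal classes and library 4 the lowest endothelial one. In satellite glia the 5 Plvap UMIs of library 5 were all in 1 cell, which also had UMIs of 6 other endothelial identity genes. The endothelial level was higher than that of neurons by 7.43 on the log2 scale (SE 0.31, adjusted p = 5.7e-17) and than that of satellite glia by 6.44 (SE 0.44, adjusted p = 7.2e-12). Since so many more UMIs were read in neurons, only 37.0% of the Plvap UMIs were endothelial and 60.9% were neuronal.

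Within the endothelium Plvap varied strongly between cells. A Plvap UMI was found in 42 of 56 cells, 14 cells had none, and the median was 2.00 UMIs with a highest count of 26. That cell, of library 5, was also the 1 endothelial cell without a Cldn5 UMI. It had 0 UMIs of Mfsd2a and of Abcb1a, 4 of Ackr1, a gene of venular endothelium, and 4 of Pecam1, 4 of Flt1 and 6 of Cdh5 among 15275 UMIs. Ackr1 was found in 3 other endothelial cells, with 1 UMI each. As a class, endothelial cells had less Ackr1 than neurons, at 9.78 ± 15.3 against 87.7 ± 20.0 CPM. Other venous genes were not counted in the cell with 26 Plvap UMIs, and whether it is venular was not tested. Without that cell the Plvap level of library 5 was 269 CPM and the mean 205 ± 51.9 (SD, n = 5). The other counts of 10 or more were in 4 cells of libraries 2, 3, 4 and 5.

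**Figure D2:**
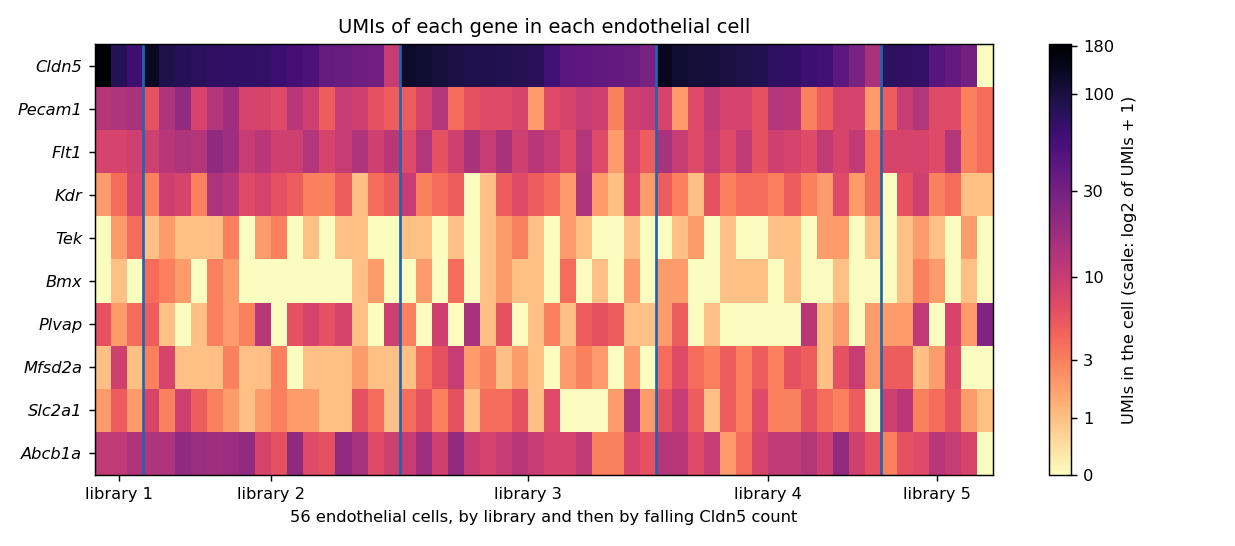
UMIs of the 10 genes (rows) in each of the 56 endothelial cells (columns), grouped by library and ordered within it by falling Cldn5 count. The colour scale is log2 of UMIs + 1. Cldn5, Pecam1, Flt1 and Abcb1a are found in nearly every column, whereas Tek, Bmx and Plvap are found in 35, 28 and 42 cells, and the last column of library 5 is the cell with 26 Plvap and 0 Cldn5 UMIs.

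The transporters followed other patterns. Mfsd2a, a lysolipid carrier that also holds down vesicular transport at the blood-brain barrier, had 189, 95.9, 144, 318 and 185 CPM in endothelial cells (186 ± 82.5, SD, n = 5). Satellite glia had 101, 116, 98.4, 153 and 80.9 CPM (109.7 ± 27.1) and neurons 0.476, 0.558, 0.779, 0.422 and 0.294. The endothelial and glial libraries overlapped, and both lay wholly above neurons. The log2 difference between endothelial cells and satellite glia was 0.67 (SE 0.25, adjusted p = 0.029), which was no call. Against neurons Mfsd2a was higher by 8.82 in endothelial cells (SE 0.33, adjusted p = 7.1e-18) and by 8.14 in satellite glia (SE 0.27, adjusted p = 5.8e-19). With more glial than endothelial cells, satellite glia held 67.2% of the Mfsd2a UMIs and endothelial cells 20.6%. A UMI was found in 79.9% of satellite glia and in 89.3% of endothelial cells, or 40.9% and 52.6% with each cell thinned to 5000 UMIs, against 2.79% of neurons (0.275% thinned).

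Slc2a1 encodes the glucose transporter GLUT1 of barrier endothelium and of many other cells. It had 154, 175, 222, 303 and 342 CPM in endothelial cells (239 ± 80.9, SD, n = 5), 103, 74.8, 72.1, 69.7 and 49.1 in satellite glia (73.8 ± 19.4), and 13.9, 16.5, 21.2, 15.9 and 14.2 in neurons (16.3 ± 2.93). The 3 classes did not overlap, in the order endothelial cells, satellite glia, neurons. The log2 difference was 1.71 between endothelial cells and satellite glia (SE 0.21, adjusted p = 2.6e-07) and 4.13 between endothelial cells and neurons (SE 0.21, adjusted p = 2.5e-15). It was 2.42 between satellite glia and neurons (SE 0.18, adjusted p = 7.1e-12). Slc2a1 was the member least confined to vessels by its UMIs, of which 5.46% were endothelial and 86.2% neuronal.

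Abcb1a, a P-glycoprotein efflux pump of barrier vessels, had 618, 731, 565, 670.3 and 425 CPM in endothelial cells (602 ± 116, SD, n = 5). In satellite glia it was at 0 in libraries 1, 3 and 4 and at 9.79 and 5.78 CPM in libraries 2 and 5, and in neurons it had 0.715, 1.45, 1.97, 0.903 and 0.667 CPM. Endothelial cells were higher than neurons by 9.34 on the log2 scale (SE 0.35, adjusted p = 6.8e-18) and than satellite glia by 7.73 (SE 0.45, adjusted p = 4.4e-13). A UMI was found in 55 of 56 endothelial cells, with a median of 10.0 per cell. Its paralog Abcb1b, which is close in sequence, had 18.5 ± 19.7 CPM in endothelial cells, and how reads shared by the pair were treated is not given in the sources used here.

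**Figure D3:**
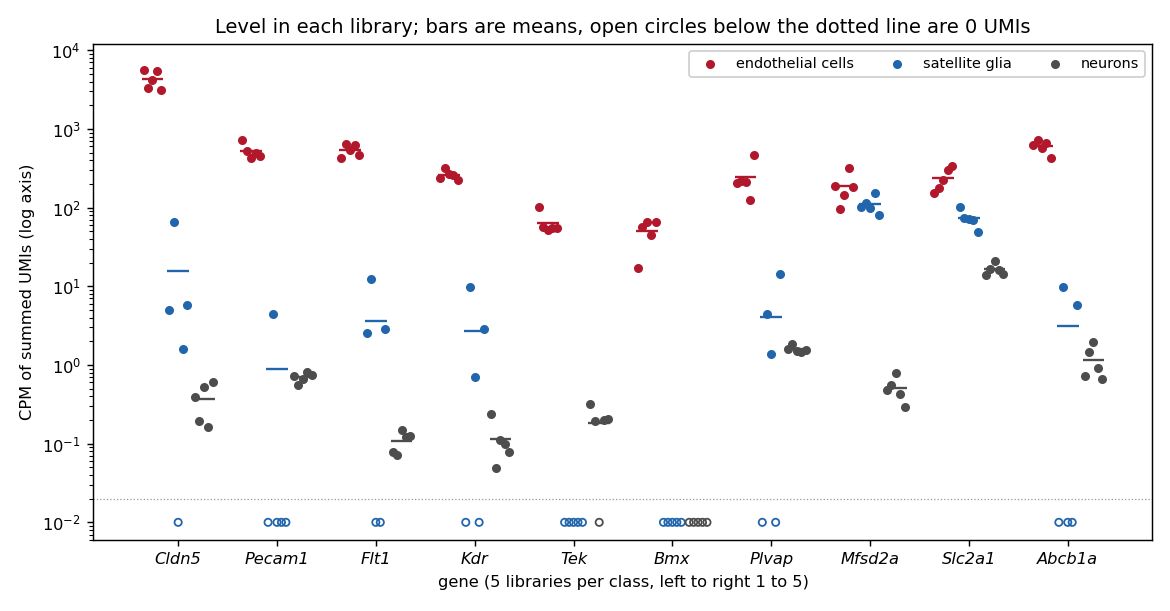
CPM of summed UMIs on a log axis for each of the 10 genes in endothelial cells, satellite glia and neurons, with 1 point for each of the 5 libraries and a bar at the mean. Open circles under the dotted line are libraries with 0 UMIs. The endothelial points lie above all others for 9 genes, and those of Mfsd2a overlap the satellite glia.

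Satellite glia against neurons gave a call for 5 of the 10 members, all higher: Mfsd2a, Slc2a1, Cldn5, Flt1 and Kdr. Over all genes 25.4% were called higher and 30.4% lower, and the libraries did not overlap for Mfsd2a and Slc2a1 alone. For Cldn5 the log2 difference was 5.71 (SE 0.73, adjusted p = 1.2e-07), for Flt1 5.10 (SE 0.87, adjusted p = 9.0e-06) and for Kdr 5.07 (SE 0.87, adjusted p = 9.0e-06). Library 2 carried these 3. Without it the differences were 2.30 for Cldn5 (adjusted p = 0.039), 2.42 for Flt1 (adjusted p = 0.12) and 2.66 for Kdr (adjusted p = 0.068), and none was a call. The glial UMIs were concentrated in 4 of the 249 cells, 3 in library 2 and 1 in library 5, which had 75, 24, 17 and 10 UMIs of the 8 members other than Mfsd2a and Slc2a1. Of these, 59, 9, 5 and 2 were Cldn5. The same 4 cells had UMIs of 9, 9, 10 and 6 of the other endothelial identity genes.

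With those 4 cells left out, a choice made after seeing the data in which 6 endothelial cells with glial UMIs were also left out, satellite glia had 1.33 ± 2.19 CPM of Cldn5 (SD, n = 5), 0.504 of Flt1, 0.139 of Kdr, 0.604 of Abcb1a and 0 of Pecam1. The calls of Cldn5, Flt1 and Kdr were then lost, with log2 differences to neurons of 1.45, 1.15 and 1.42 (adjusted p = 0.23, 0.54 and 0.43). The 4 cells were picked for their UMIs of other endothelial identity genes. A fall of endothelial members was thus built into the choice, and it shows only how much these cells held. The other 2 glial members did not move with these cells. Mfsd2a was at 109.8 ± 26.0 CPM and Slc2a1 at 74.6 ± 18.7 without them.

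Single cells of each class held the members together to different degrees. Endothelial cells had UMIs of 9 of the 10 members in the median, of at least 5 in each of the 56 cells and of all 10 in 14 cells. Satellite glia had 2 in the median, with 5 or more in 4 cells, and neurons 1, with 5 or more in 2 cells. Plvap and Mfsd2a, which mark leaky and tight vessels in the central nervous system, were found together in most of these cells. Both had UMIs in 36 endothelial cells, Plvap alone in 6, Mfsd2a alone in 14 and neither in 0. With Plvap found in 42 of the 56 cells and Mfsd2a in 50, most cells had to hold both. Bmx and Mfsd2a were both found in 27 cells, and 1 cell had Bmx alone. These are counts of detection at a median depth of 16889 UMIs, and a gene with few UMIs per cell is missed in some cells that express it.

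Among the 12 neuron types, 3 members were abundant enough for the F test with a filter on low counts, Abcb1a, Plvap and Slc2a1, and all 3 differed between types. So did 94.3% of the 11561 genes tested, since the types were defined from these counts. Without the filter, 6 of the 9 members with a UMI in neurons were called (Abcb1a, Plvap, Slc2a1, Pecam1, Tek and Mfsd2a), beside 77.8% of all 17237 genes. The levels themselves show in which neurons these genes were read.

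Abcb1a was highest in 2 neuron types, and 11 of the 12 types held at least 1 UMI. NF2_Ntrk2.Necab2 had 7.17, 9.74, 17.9, 11.2 and 9.62 CPM (11.1 ± 4.04, SD, n = 5) and Th 3.85, 8.92, 12.6, 6.07 and 6.94 (7.68 ± 3.30), and each lay wholly above the 10 remaining types, while the pair overlapped. The F statistic was 33.3 (adjusted p = 5.5e-20 in edgeR). NF_Pvalb held 0 Abcb1a UMIs in 113 cells, which allows up to 2.65% of cells with a UMI (exact upper limit 3.21%). A UMI was found in 67.2% of NF2_Ntrk2.Necab2 cells and 35.8% of Th cells (median depths 96530.5 and 56281 UMIs), or 13.9% and 9.32% with cells thinned to 13000 UMIs, against 1.84% of satellite glia thinned in the same way. Endothelial cells held 0.153 Abcb1a UMIs per Cldn5 UMI, whereas NF2_Ntrk2.Necab2 held 62 Abcb1a UMIs beside 1 of Cldn5 and Th 113 beside 2.

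Plvap was highest in 2 peptidergic types. PEP1_Slc7a3.Sstr2 had 7.91, 6.50, 10.4, 5.74 and 9.52 CPM (8.02 ± 1.98, SD, n = 5) and PEP3_Trpm8 had 6.01, 10.3, 6.12, 7.74 and 6.18 (7.26 ± 1.82), and each lay above 9 types in every library. The type PEP1_Dcn overlapped both, with 10.3 CPM in library 1 and 0.651 to 4.11 in the other libraries. The F statistic was 17.4 (adjusted p = 1.9e-14). A Plvap UMI was found in 21.6% of PEP1_Slc7a3.Sstr2 cells and 19.6% of PEP3_Trpm8 cells (median depths 38284 and 30800.5 UMIs), or 9.73% and 9.22% with cells thinned to 13000 UMIs, against 2.04% of satellite glia thinned in the same way. The first of these types held 105 of the 346 neuronal Plvap UMIs.

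Pecam1 was read mainly in NP_Nts neurons, which had 4.38, 3.32, 3.09, 3.32 and 3.99 CPM (3.62 ± 0.545, SD, n = 5). They held 77 of the 156 neuronal Pecam1 UMIs (49.4%) while they made up 13.1% of the neurons, and lay above 10 types in every library. The exception was NF2_Ntrk2.Necab2, with 0 in libraries 1 and 2 and 8.12, 3.30 and 1.67 CPM in libraries 3 to 5. The F statistic without the filter was 10.0 (adjusted p = 4.2e-10). NP_Nts held 4.81 Pecam1 UMIs per Cldn5 UMI, and endothelial cells 0.120. Of the 16 Cldn5 UMIs of NP_Nts, 12 were in 1 cell of library 5, and the source of the neuronal Pecam1 UMIs was not tested.

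Slc2a1 was present in all 12 neuron types. PEP3_Trpm8 was the highest with 57.1, 30.8, 38.7, 29.8 and 30.9 CPM (37.5 ± 11.5, SD, n = 5), above 10 types in every library, followed by NP_Nts with 20.5, 27.0, 33.5, 26.1 and 21.9 (25.8 ± 5.14), whose range overlapped it. The lowest was NP_Mrgpra3 at 9.14 ± 3.20 CPM. The F statistic was 7.57 (adjusted p = 8.0e-08). A UMI was found in 61.7% of all neurons, but in 8.46% with each cell thinned to 5000 UMIs.

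Tek and Mfsd2a were rare in neurons but not evenly spread. Of 40 neuronal Tek UMIs, 34 (85.0%) were in 34 of 900 NP_Mrgprd cells, a type that made up 29.5% of the neurons and held 92245664 of their 219040556 UMIs, with 0.415, 0.436, 0, 0.401 and 0.387 CPM in the 5 libraries (mean 0.328). NF_Calb1 had a mean of 0.287 CPM, from 2 UMIs of library 1, and NP_Mrgprd lay wholly above no other type. The F statistic without the filter was 3.47 (adjusted p = 0.0022). Mfsd2a was highest in PEP3_Trpm8, from only 12 UMIs over the 5 libraries, in 11 of 168 cells. Its levels there were 3.0, 1.47, 4.08, 1.66 and 1.85 CPM (2.41 ± 1.11), above 6 types in every library (F statistic 2.95, adjusted p = 0.0041). The VEGF receptors and Cldn5 had no such type. Kdr (adjusted p = 0.051), Flt1 (adjusted p = 0.16) and Cldn5 (adjusted p = 0.010) missed the threshold, and 3 neurons of library 5 held 13, 12 and 10 of the 88 neuronal Cldn5 UMIs.

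**Figure D4:**
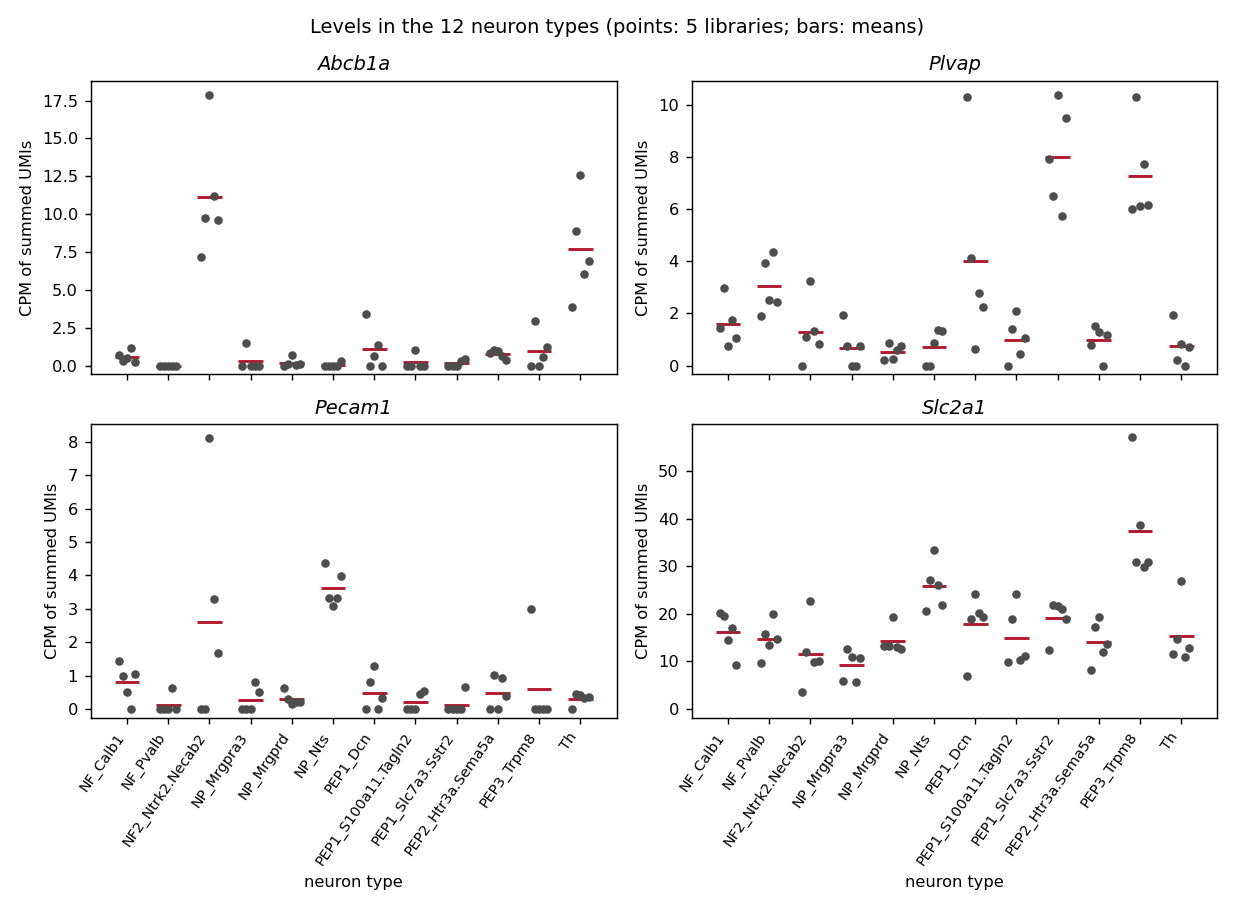
CPM of summed UMIs of Abcb1a, Plvap, Pecam1 and Slc2a1 in the 12 neuron types, with 1 point per library and a bar at the mean of 5 libraries (each panel has its own linear axis). Abcb1a stands out in NF2_Ntrk2.Necab2 and Th, Plvap in PEP1_Slc7a3.Sstr2 and PEP3_Trpm8, Pecam1 in NP_Nts and Slc2a1 in PEP3_Trpm8.

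The other genes of the same pathways were taken from lists that include the members. Of 17 tight and adherens junction genes, 11 were tested and 10 were higher in endothelial cells than in neurons, 9 higher than in satellite glia and 1 lower, with median log2 differences of 5.98 and 3.04. Beside Cldn5, the adhesion molecule Esam had 874 ± 200.4 CPM in endothelial cells and VE-cadherin (Cdh5) 844 ± 103. Jam2 had 287 ± 95 CPM in endothelial cells and 106 ± 26.2 in satellite glia. Jam3, of the same family of junction adhesion molecules, was the exception, with 147 ± 32.1 CPM in satellite glia and 67.1 ± 29.7 in endothelial cells, a log2 difference of -1.07 (SE 0.24, adjusted p = 7.2e-04).

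Of the 10 VEGF ligands and receptors, 8 were tested. Those higher in endothelial cells were the same 5 against neurons and against satellite glia, namely the receptors Flt1, Kdr and Flt4 and the co-receptors Nrp1 and Nrp2, and the median log2 differences of the list were 3.06 and 3.92. Nrp2 had 458 ± 124 CPM in endothelial cells and Nrp1 264 ± 78.3, with Nrp1 also at 75.4 ± 19.4 in neurons. No ligand was called higher in endothelial cells. Vegfb was the ligand with the most UMIs in neurons, at 66.8 ± 6.23 CPM against 5.27 ± 6.08 in endothelial cells, a log2 difference of -2.88 (SE 0.37, adjusted p = 1.7e-07). Pgf was lower than in satellite glia, by -2.92 (SE 0.72, adjusted p = 0.0015), at 1.40 ± 1.92 against 16.9 ± 5.98 CPM. Vegfa, the main ligand of Kdr, had 19.8 ± 19.4 CPM in endothelial cells, 19.2 ± 4.45 in satellite glia and 8.37 ± 1.24 in neurons, and satellite glia were higher than neurons by 1.49 (SE 0.24, adjusted p = 4.2e-06).

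Of the 6 angiopoietin and Tie genes in the matrix, 4 were tested. All 4 were higher in endothelial cells than in neurons, and 3 higher than in satellite glia, with median log2 differences of 7.78 and 6.17 (Tek at its limit). Tie1, the partner receptor of Tek, had 148 ± 34.7 CPM in endothelial cells and Ptprb, the phosphatase that restrains Tek, 98.3 ± 17.1. Angpt2, the ligand that can antagonize Tek, had 61.6 ± 25.0 CPM in endothelial cells and 42.4 ± 18.5 in satellite glia, a difference of 0.68 (SE 0.35, adjusted p = 0.12). The agonist Angpt1 was low in all 3 classes, with 2.62 ± 1.70 CPM in satellite glia and less in the others, and was not tested.

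**Figure D5:**
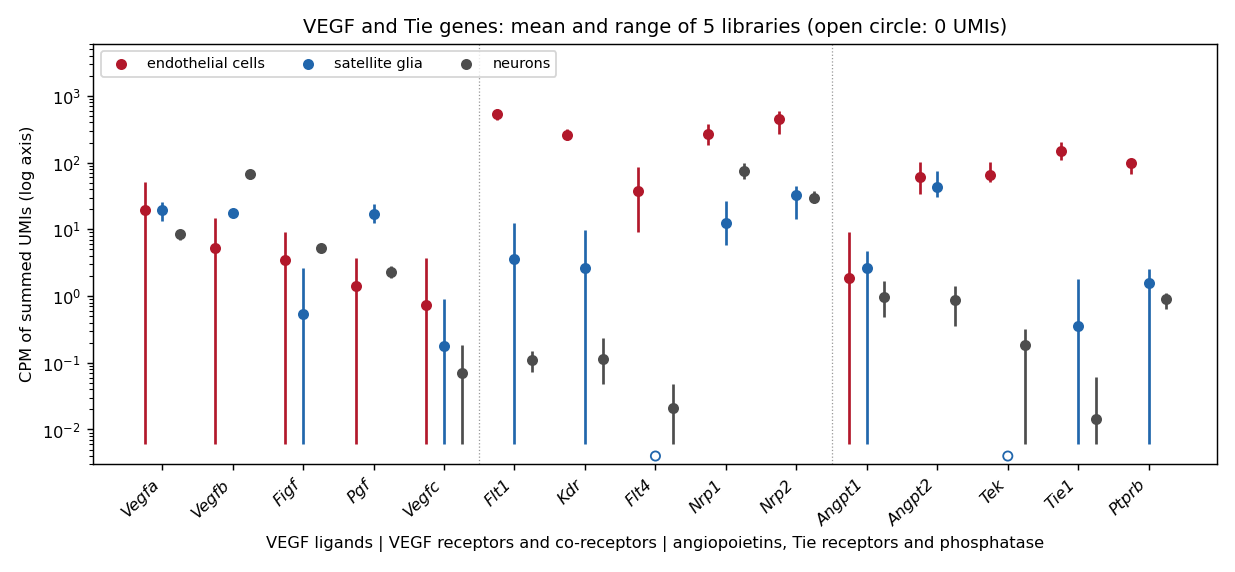
Mean CPM (points) and range over 5 libraries (lines) on a log axis for VEGF ligands, VEGF receptors and co-receptors, and angiopoietin and Tie genes in endothelial cells, satellite glia and neurons. Open circles are classes with 0 UMIs, and lines that reach the lower end include libraries at 0. The receptors are highest in endothelial cells, and Vegfb is highest in neurons at 66.8 CPM.

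Of 21 barrier transporters 13 were tested, of which 9 were higher in endothelial cells than in neurons, and 8 higher and 2 lower (Lrp1, Slc16a1) than in satellite glia, with medians of 3.65 and 2.35. The efflux pump Abcg2 had 729 ± 171 CPM in endothelial cells and the organic anion carrier Slco1a4 272 ± 74.9. Slc3a2, the heavy chain of amino acid carriers, had 1539 ± 204 CPM in endothelial cells and 1177 ± 214 in satellite glia, a difference of 0.35 (SE 0.16, adjusted p = 0.080). Of 11 glucose transporters 4 were tested, and Slc2a1 alone was higher than in neurons, with Slc2a3 and Slc2a6 lower (median -1.35). Against satellite glia Slc2a1 and Slc2a3 were higher (median 0.80). Slc2a3, the neuronal GLUT3, had 50.8 ± 5.95 CPM in neurons and 12.4 ± 14 in endothelial cells, a difference of -1.31 (SE 0.38, adjusted p = 0.0039). Slc2a6 had 4.43 ± 8.01 CPM and Slc2a8 6.57 ± 8.05 in endothelial cells.

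All 8 genes of caveolae and diaphragms were tested. All 8 were higher in endothelial cells than in neurons and 6 higher than in satellite glia, with medians of 3.96 and 2.11. The dynamin-like Ehd4 had 589 ± 142 CPM in endothelial cells and 158 ± 26.8 in satellite glia, the caveolar coat genes Cav1 266 ± 95.5 and Sdpr (cavin 2) 261 ± 49.6 in endothelial cells. Prkcdbp (cavin 3) had 299.7 ± 33.1 CPM in endothelial cells and 285 ± 40.4 in satellite glia, a difference of 0.07 (SE 0.16, adjusted p = 0.74). Of 19 genes of the Wnt pathway that induces the barrier in brain vessels, 10 were tested, 9 were higher than in neurons and 7 higher than in satellite glia, with medians of 4.54 and 4.60. The transcription factors Sox17 and Sox7 had 367 ± 134 and 139.8 ± 67.7 CPM in endothelial cells, the Wnt feedback gene Nkd1 60.3 ± 20.7 and beta-catenin (Ctnnb1) 228 ± 34.8, against 136 ± 5.99 in neurons for Ctnnb1. Lrp6, a Wnt co-receptor, had 26.6 ± 7.07 CPM in satellite glia.

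Of the 5 TEC family kinases, Bmx and Tec were tested. Both were higher in endothelial cells than in neurons and Bmx alone higher than in satellite glia, with medians of 7.67 and 3.18 at the limit of Bmx. Tec had 19.1 ± 15.3 CPM in endothelial cells and 25.2 ± 7.86 in satellite glia.

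Lists for the branches of the vascular tree place the members beside their usual neighbours. Of 7 arterial genes tested, all 7 were higher in endothelial cells than in neurons and 6 higher than in satellite glia (medians 7.12 and 3.14). Beside Bmx, the list was led by Mgp at 113 ± 106 CPM, Dll4 at 111 ± 32.8, Gja4 at 96.2 ± 55.2 and Efnb2 at 70.5 ± 28.7, whereas the arterial connexin Gja5 was at 0. In satellite glia the highest of the list were the Notch target Hey1, at 21.9 ± 5.95 CPM, and the Notch ligand Jag1, at 18.3 ± 5.78. Of 7 capillary genes tested, 5 were higher than in neurons, and 4 higher and 1 (Slc16a1) lower than in satellite glia (medians 5.73 and 2.35). Rgcc had 881 ± 264 CPM in endothelial cells and 1318 ± 208 in satellite glia, Gpihbp1 had 375 ± 84.7, Car4 322 ± 171 and Spock2 221 ± 80 in endothelial cells, and Spock2 had 74.5 ± 7.06 in neurons. Of 5 venous genes tested, 4 were higher and 1 (Ackr1) lower than in neurons, and 2 higher than in satellite glia (medians 8.09 and 1.68). Their endothelial levels were 86.3 ± 66.2 CPM for Lrg1, 66.4 ± 12.6 for Vwf, 60.4 ± 44.9 for Vcam1 and 37.0 ± 28.6 for Nr2f2, which had 42.6 ± 20.0 in satellite glia, and Ackr1 had 87.7 ± 20.0 in neurons. Of 2 lymphatic genes tested, the receptor Flt4 was higher than in either class, at 37.1 ± 28.9 CPM, and Pdpn lower than in satellite glia, which had 179.7 ± 27.1. The defining lymphatic genes were at or near 0 in endothelial cells, with Prox1 at 1.32 ± 2.96 CPM and Lyve1 at 0. All 5 pericyte genes tested were called higher in endothelial cells than in satellite glia (median 2.77), beside the sums given above, and their part in these values was not tested.

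The genes most alike in profile were found for each member over the 14 types, by Pearson's r between log2(CPM + 1) values, among 11124 genes with at least 10 CPM in a type. Most points of such a correlation are 12 neuron types near 0, so it is given as a description. For Cldn5 these were Lfng (0.997), Olfr56 and Casp8 (0.996 each), and for Pecam1 Mall, Csf2rb2 (0.978 each) and Il20rb (0.977). For Flt1 they were Slc39a8, Foxf1 and Ecscr (0.998 each), for Kdr Cxcl12 (0.999), Stc1 (0.997) and Cyp1a1 (0.996), and for Tek Hhex (0.998), Mecom and Klhl6 (0.997 each). Bmx was matched at 1.000 by Pydc4, Tnfrsf26 and Ces2e, and 72 genes in all reached 0.99. Plvap had no such close neighbour, with Ifi204 (0.954), Snai1 (0.952) and Cx3cl1 (0.948). Mfsd2a was nearest to Cmtm3 (0.993), Itih5 (0.991) and Dock1 (0.989), Slc2a1 to Ncl (0.978), Nxf1 (0.977) and 4931406P16Rik (0.973), and Abcb1a to Eps8l2 (0.977), C130074G19Rik (0.963) and Rbpms (0.952).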

How the data were processed

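Lumbar DRG cells of 5 mice were profiled with the Chromium 3′ single-cell assay. The authors counted UMIs with Cell Ranger on mm10 with the UCSC gene model, selected cells by their number of genes and their mitochondrial share, and clustered and named them with Seurat after integrating the samples. The deposited values are raw UMI counts per gene and cell, not normalized, and the deposited annotation gives 1 type per cell. The cells held 2432 to 9652 genes each and at least 13103 UMIs. Mitochondrial rows took up to 15.2% of the UMIs of a cell, and more than 10% in 188 cells, of which 1 was endothelial. The sources used here name no computational removal of doublets, no doublet caller was run, and no cell was removed.

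The 5 libraries are known only from identifiers within the cell names. Each was taken as 1 mouse and numbered through equal numbers of cells per type (70 of 70) in the study's supplementary list, and none was assigned to a sample label or sex. Without a named batch, animal and batch cannot be told apart. The libraries held 13050375 to 88886919 UMIs in 164 to 1370 cells. The 4 rows that name no gene (143 UMIs, 6.4e-05% of all) were left out.

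UMIs were summed per library for 3 classes (15 sums) and for 12 neuron types (60 sums). Tests used edgeR 4.0.16 in R 4.3.3 with TMM, filterByExpr at its defaults, the quasi-likelihood test and Benjamini-Hochberg adjustment over all genes tested. Calls between classes needed an adjusted p under 0.01 and a difference of at least 2-fold, and calls among neuron types an adjusted p under 0.01. The SE beside a log2 difference is that difference, without its sign, divided by the square root of the F statistic. It was calculated back from the test and is not a standard error that edgeR estimates. The scripts were tested on simulated counts. Sums of 1 library come from the same mouse. After group means were removed, the correlations across genes between classes of a library were 0.0122 to 0.203 (over 0.1 in 4 of 15 pairs), and those between neuron types -0.0302 to 0.451 (over 0.1 in 203 of 330). The fit with the library as a replicate block was an alternative. Exact Clopper-Pearson intervals at 95% and the limit of 3 counts for a count of 0 cover counting error only. Thinned shares are the shares to be found after drawing 5000 or 13000 UMIs from each cell.

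The members and lists were chosen with earlier results of these data known. All members are named. From each list, up to 4 genes with the highest mean CPM in endothelial cells and up to 2 with the highest in satellite glia or neurons are named. Genes called against the direction of their list, paralogs, ligands and markers at 0 are named beside them and were chosen after their values were seen. For each member the 3 genes with the most alike profile are named. Alternatives were DESeq2 1.42.0, no filter on low counts, the replicate block, an adjusted p under 0.05, sums of at least 10 cells, other summaries of a level, each library left out in turn and, added after seeing the data, 1 cell or the mixed cells left out, that is cells with UMIs of both endothelial and glial genes. Some genes that the rule would name are not reported here. Python 3.11.15 was used with numpy 2.4.6, scipy 1.17.1 and pandas 2.3.3.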

Additional observations from a re-analysis of the deposited data

Results flagged for a closer look

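Of 27 sets of 5 libraries examined, 5 held a library far from the other 4 (Dixon's gap over range above 0.71). The rule assumes normally distributed values, and some of these sets are sparse counts, so 5 of 27 was not set against chance. A set at 0 in 4 libraries, as for Pecam1 in satellite glia, is flagged whenever the other library is above 0. In satellite glia, library 2 was the high one for Cldn5, at 65.0 CPM with the next library at 5.78, for Pecam1, at 4.45 with the others at 0, and for Flt1, at 12.5 with the next at 2.89. It holds 3 of the 4 glial cells with UMIs of many endothelial genes, and the levels without those cells stand in the results. In endothelial cells, Tek was at 103 CPM in library 1, whose sum has 3 cells, with the next library at 56.2. Plvap was at 471 CPM in the endothelial cells of library 5, with the next at 215, and at 269 without the 1 cell that had 26 Plvap UMIs.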

How the results depend on the processing

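The 99 log2 differences of members between endothelial cells and neurons and the 88 between endothelial cells and satellite glia, computed under DESeq2, no filter, the replicate block, an adjusted p under 0.05, sums of at least 10 cells, each library left out and mixed cells left out, kept their direction and their side of the threshold (Tek and Bmx against a class at 0 have no such value). For Mfsd2a between endothelial cells and satellite glia the 11 alternatives gave log2 differences of 0.54 to 0.92 with adjusted p of 0.0045 to 0.082, always under 2-fold. With the library as a replicate block this difference was 0.66, and no call of a member changed under the block. Between satellite glia and neurons 77 of 88 values kept both, 6 lost their call (Cldn5, Flt1 and Kdr, each without library 2 and with mixed cells left out, as given in the results) and 5 changed sign, none of them called with all cells and libraries. For these, leaving out 1 library in turn gave log2 differences of -6.51 (without library 2) to 1.40 for Pecam1 and -0.52 (without library 2) to 2.35 for Abcb1a. With mixed cells left out they were -6.41 for Pecam1, -2.04 for Abcb1a and -0.28 for Plvap. The negative values of Pecam1 are set against glia at 0 and depend on the prior count. DESeq2 moved the median log2 difference of all genes from -0.44 to -0.80 between endothelial cells and neurons and from -0.17 to -0.45 between satellite glia and neurons. It changed the calls of 4, 5 and 14 of 107 listed genes in the 3 comparisons, with 0 opposite calls, and the replicate block those of 1, 0 and 3. All 43 numbers of genes called under alternatives stayed within 1.5 times the number first given. The mean CPM of single cells in place of sums moved 3 levels, those of Pecam1 (0.819), Flt1 (0.156) and Plvap (2.27) in neurons, and thinning moved 55 of 90 shares of cells. Precision is limited by the 56 endothelial cells, with 58279 UMIs in the smallest endothelial sum and 1 to 18 Bmx UMIs per library.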

Other observations

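Other genes of the lists also differed among neuron types. They were chosen after their values were seen. Vegfb had its highest neuronal level in NF2_Ntrk2.Necab2, at 175 ± 18.6 CPM (SD, n = 5), where Nrp1 reached 324 ± 73.7. Nrp2 was highest in PEP2_Htr3a.Sema5a, at 155 ± 19.1 CPM, the type in which the efflux pump Abcg2 had 256 ± 68.7 and the junction gene Cgnl1 127 ± 20.1. Among the ligands, Pgf was highest in NF_Pvalb at 30.7 ± 7.95 CPM, Figf, the gene of VEGF-D, in Th neurons at 19.3 ± 2.90, and Angpt2 in NF_Pvalb at 13.2 ± 6.40. Cav1 reached 134 ± 27.6 CPM in NP_Mrgpra3 and the glucose transporter gene Slc2a3 109 ± 24.0 in NP_Nts. The venular chemokine receptor gene Ackr1 reached 301 ± 34.1 CPM in NF_Calb1 neurons, against 9.78 ± 15.3 in endothelial cells. Wnt7a, a ligand that induces the barrier in brain vessels, was highest in NF_Pvalb at 52.1 ± 7.78 CPM, and Ndp, a ligand of Fzd4, in NP_Nts at 35.9 ± 11.2.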
